A study of Homo sapiens with 2 samples.

Results

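EGFR and 9 genes whose products restrain signaling from receptor to ERK were examined for TCF7L1 binding: ERRFI1, DUSP4, DUSP5, DUSP6, SPRY1, SPRY2, SPRY4, SPRED1 and SPRED2. These 10 genes, of 20046 protein-coding genes in GENCODE release 44, were chosen by name, with earlier results of these data already known. For each, every binding summit inside the gene or within 100 kb of any of its annotated transcription start sites (TSSs) was taken, which gave 10 of the 3762 TCF7L1 summits and 0 of the 224 TCF7L1-MUT summits. A summit is the base at which most reads are stacked within an enriched region.

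Both samples were HCT116 cells, an established human colon adenocarcinoma line, stably carrying a doxycycline (Dox)-inducible pCW57.1 lentiviral plasmid. In both, endogenous TCF7L1 was depleted with the short hairpin RNA shTCF7L1-2 and the FLAG-tagged protein was induced with 1 µg/ml Dox. The induced protein was TCF7L1 in the first sample and TCF7L1-MUT, whose DNA-binding domain is mutated, in the second, and anti-FLAG chromatin immunoprecipitation followed by sequencing (ChIP-seq) was performed on each. Each group had 1 sample, so no value below has a replicate check and no test between the samples was made. The binding is thus that of an induced, tagged protein in a stable line, and the files give called regions without reads, so library depth was not analysed here.

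EGFR is a receptor tyrosine kinase at the cell surface that, once bound by its ligands, activates RAS, the RAF and MEK kinases and finally ERK. ERK induces its own inhibitors: ERRFI1 binds and blocks the EGFR kinase domain, Sprouty (SPRY) and SPRED proteins act on the step from receptor to RAS and RAF, and the dual-specificity phosphatases DUSP4, DUSP5 and DUSP6 remove phosphate from ERK. The pathway is of interest in the colon because epithelial growth depends on it. TCF7L1 is a member of the TCF/LEF family, best known as a repressor of Wnt target genes, and binds through a core that reads CTTTGAA or else CTTTGAT, with CTTTGTA or else CTTTGTT as its other forms.

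To show where this core lies at the sites described below, the sequences at the promoters of DUSP6 and SPRY2 and at 3 sites away from promoters are given first. They were read from GRCh38/hg38, plus strand, and capitals mark the TCF core. Where a window lacks the core, capitals mark a looser pattern, TTTGAA or else TTTGAT, with TTTTAA or else TTTTAT as its other forms. At SPRY2 the summit lies in an untranslated exon, so only the 2 matches with their nearest bases are shown. The other windows span 100 bp to either side of the summit.
DUSP6 promoter, chr12:89352740-89352940: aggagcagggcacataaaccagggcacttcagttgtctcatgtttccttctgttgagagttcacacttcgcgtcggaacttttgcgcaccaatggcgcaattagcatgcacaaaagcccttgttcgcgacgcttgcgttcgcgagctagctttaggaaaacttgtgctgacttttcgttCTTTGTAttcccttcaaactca
SPRY2 promoter, first match, chr13:80339524-80339553: caaagtagcatCTTTGAAataaaagggggc
SPRY2 promoter, second match, chr13:80339598-80339627: tggcctccttcTTCAAAGctggactcccta
DUSP6, 34.4 kb downstream, chr12:89316657-89316857: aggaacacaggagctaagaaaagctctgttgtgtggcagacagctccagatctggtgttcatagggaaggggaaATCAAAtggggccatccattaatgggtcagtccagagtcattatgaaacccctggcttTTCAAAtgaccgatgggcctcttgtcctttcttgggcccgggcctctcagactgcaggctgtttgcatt
SPRY2, 18.9 kb upstream, chr13:80359940-80360140: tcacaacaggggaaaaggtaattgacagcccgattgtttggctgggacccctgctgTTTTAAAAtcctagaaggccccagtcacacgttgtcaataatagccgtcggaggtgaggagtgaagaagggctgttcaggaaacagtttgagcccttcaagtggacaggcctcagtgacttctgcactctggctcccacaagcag
SPRY4, 35.4 kb downstream, chr5:142280270-142280470: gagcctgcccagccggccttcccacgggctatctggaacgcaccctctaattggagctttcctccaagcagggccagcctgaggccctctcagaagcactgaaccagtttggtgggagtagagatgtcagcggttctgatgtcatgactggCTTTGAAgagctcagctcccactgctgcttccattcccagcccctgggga

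The first question was how many of the genes had a TCF7L1 site at all. DUSP6, SPRY2 and SPRY4 had 3 summits each and DUSP5 had 1, while EGFR, ERRFI1, DUSP4, SPRY1, SPRED1 and SPRED2 had none. Thus 4 of 10 genes had a TCF7L1 summit by this rule, beside 23.1% of all protein-coding genes. At least 3 summits were found at 3 of 10 genes, beside 2.2% of all protein-coding genes. This cut is the very count held by DUSP6, SPRY2 and SPRY4 and was not varied, so it only describes them. Only DUSP6 and SPRY2 had a summit within 2.5 kb of a TSS, the distance used here for promoters, which is 2 of 10 beside 4.86% of all protein-coding genes. With so few genes, chosen with earlier results known, and no replicate, these shares describe the genes and are not a test of the group. The TCF7L1-MUT sample had a summit by the rule at 0 of 10 genes, beside 0.803% of all protein-coding genes, and a promoter summit at 0 of 10, beside 0.0948%. Since so few genes of any kind had a TCF7L1-MUT summit, its absence at these 10 is not particular to them. None of the 10 TCF7L1 regions overlapped a TCF7L1-MUT region by 1 bp or more.

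The searched spans of the 10 genes covered 2.32 Mb and held 4.31 TCF7L1 summits per Mb. The spans of 20033 protein-coding genes on chromosomes 1 to 22, X and Y, merged, covered 2030 Mb and held 1.45 per Mb. The member density restates the same 10 summits, of which 2 were nearer to another gene. It describes these chosen genes and is no further result. EGFR, with the longest span at 381.6 kb, had no summit, and neither did SPRED2 with 297.9 kb, whereas DUSP6 and SPRY2, with 201.3 kb and 201.5 kb, had 3 each.

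**Figure D1:**
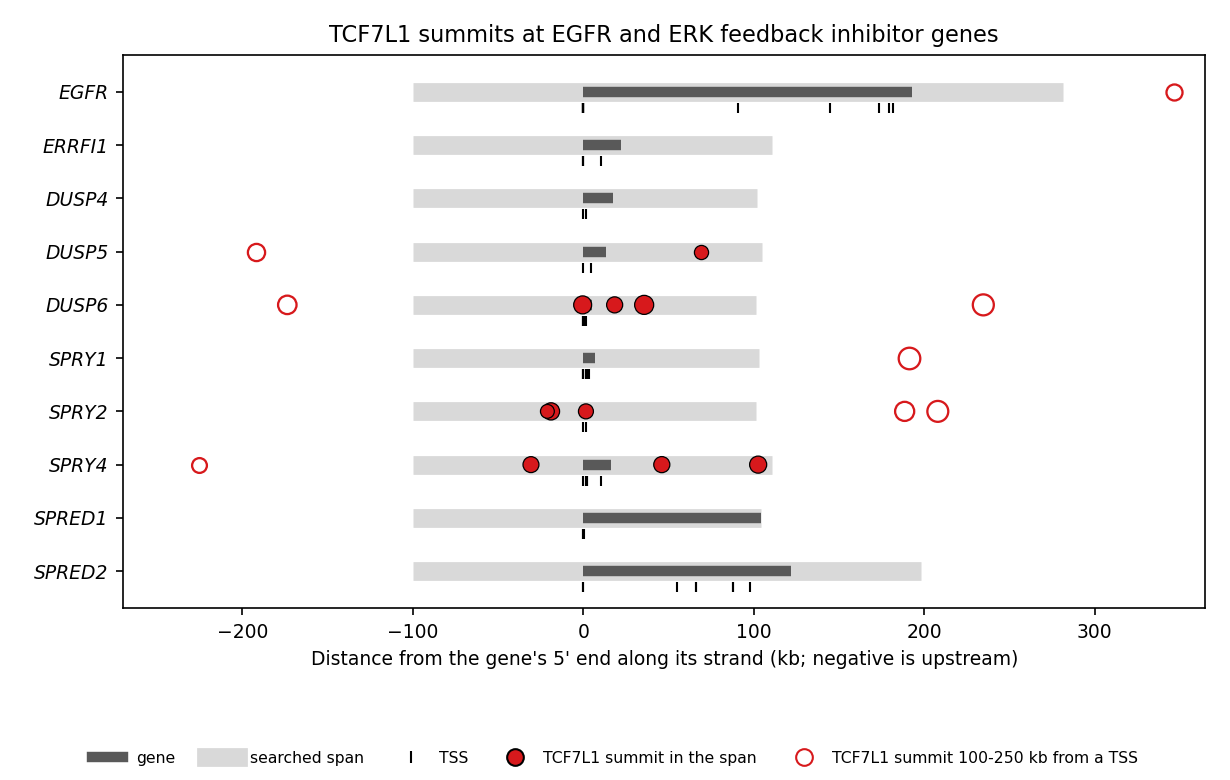
Position of TCF7L1 summits at the 10 genes, in kb from each gene's 5′ end along its own strand; point area scales with fold enrichment, filled points lie in the searched span and open points 100 to 250 kb from a TSS. The 10 filled points fall on DUSP5, DUSP6, SPRY2 and SPRY4, and the other 6 genes have none.

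DUSP6, a cytoplasmic phosphatase selective for ERK, had the highest fold enrichment and the highest −log10 q-value among the 10 summits, at different sites. Its promoter region (chromosome 12, 89352557 to 89353091) had a summit 339 bp upstream of the most 5′ TSS. The fold enrichment in the TCF7L1 sample was 5.31 and the −log10 q-value was 13.98, the highest among the 10 summits, while no region was listed there in the TCF7L1-MUT sample. This −log10 q-value exceeded 91.0% of all TCF7L1 summits and 92.7% of the 969 summits located at promoters. The summit also lay in an exon of an unnamed long non-coding RNA, ENSG00000274021. The TCF core in its window, CTTTGTA, lay 82 bp from the summit.

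A pair of further DUSP6 sites lay past the 3′ end of the gene in intergenic sequence. The first (89333826 to 89334184) was 17.1 kb downstream of the nearest DUSP6 TSS, where the fold enrichment was 4.25 (−log10 q-value 3.72). The second (89316455 to 89317044) was 34.4 kb downstream, where the fold enrichment was 5.98, the highest among the 10 summits (−log10 q-value 11.04). The nearest protein-coding TSS of both was that of DUSP6. Neither window held the TCF core, and the nearer site also lacked the looser pattern.

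SPRY2, an inhibitor of signaling from receptor tyrosine kinases to RAS and ERK, had its promoter site inside the gene. The region (chromosome 13, 80339253 to 80339904) had a summit 115 bp downstream of a TSS and 1582 bp from the 5′ end of the longer transcript, in the untranslated first exon of the shorter one. Its fold enrichment was low at 3.69, above only 9.94% of all TCF7L1 summits, but its −log10 q-value was 11.3, above 85.2%. It was the site with the most reads of the 10, with 56 reads stacked at the summit over a local background of 14.4. The window held 2 TCF cores, both CTTTGAA and on opposite strands, centred 6 bp to the left and 68 bp to the right of the summit.

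Upstream of SPRY2 lay a close pair of intergenic regions. The first (80359518 to 80360271), 18.9 kb upstream, was the widest of the 10 at 754 bp, and its fold enrichment was 4.86 with a −log10 q-value of 12.5. The second (80361986 to 80362319), 21.0 kb upstream, was weaker, at a fold enrichment of 3.16 (−log10 q-value 3.24). Their summits were 2111 bp apart. Both had SPRY2 as the nearest protein-coding gene, and neither held the TCF core.

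SPRY4, a second Sprouty inhibitor, had 3 sites and none at its promoter. The nearest (chromosome 5, 142356906 to 142357339) was 30.7 kb upstream, in an intron of the long non-coding RNA SPRY4-AS1, at a fold enrichment of 4.18 (−log10 q-value 5.61). Its window had the highest GC content of the 10, 62.2%, and 3 matches to the SP/KLF pattern GGGCGG, but no TCF pattern. The second (142280067 to 142280567) was 35.4 kb downstream in intergenic sequence, at a fold enrichment of 4.26 (−log10 q-value 4.75), and held CTTTGAA 54 bp from the summit.

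The third SPRY4 site (142223631 to 142224024) was 92.0 kb downstream, close to the limit of the search, at a fold enrichment of 4.8 (−log10 q-value 6.14). It was 80853 bp from a TSS of NDFIP1, which is nearer than any of SPRY4. In its window 38.6% of the 31-base words occurred more than once in the genome, the most repeated of them 3718 times. The AP-1 pattern TGACTCA lay 6 bp from the summit, the only AP-1 match among the 10 windows.

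DUSP5, a nuclear phosphatase for ERK, was counted for 1 region (chromosome 10, 110566476 to 110566849) located 64.0 kb downstream of its TSS. This summit was 978 bp upstream of a TSS of SMC3, which encodes a subunit of cohesin, so it lay at the promoter of another gene. It was among the weakest, at a fold enrichment of 3.30, and its −log10 q-value of 2.19 was above that of 7.20% of all TCF7L1 summits. Counting only summits whose nearest protein-coding TSS was that of the gene itself, a choice made after the values were seen, left 8 summits at 3 genes, DUSP6, SPRY2 and SPRY4, and 10.5% of all protein-coding genes.

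**Figure D2:**
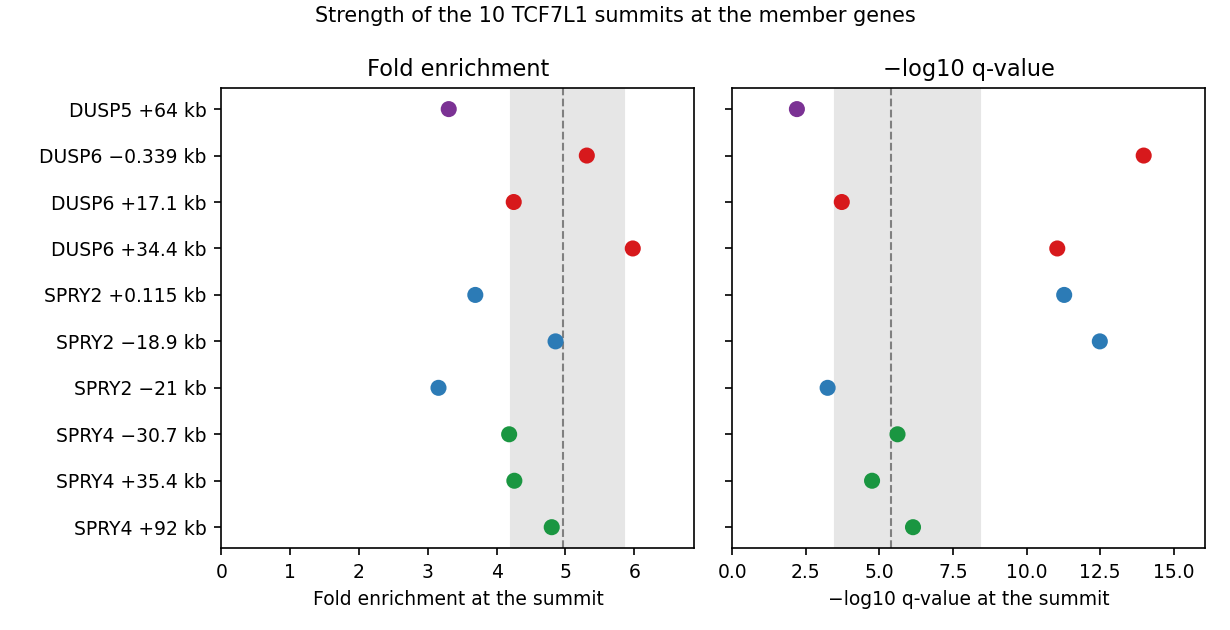
Fold enrichment (left) and −log10 q-value (right) of the 10 TCF7L1 summits, named by gene and distance from its nearest TSS (negative is upstream); the dashed line is the median and the shaded band the middle 50% of all TCF7L1 summits on chromosomes 1 to 22, X and Y. The promoter sites of DUSP6 and SPRY2 and the sites 34.4 kb downstream of DUSP6 and 18.9 kb upstream of SPRY2 stand to the right of the band in −log10 q-value, with fold enrichments between 3.69 and 5.98.

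The members' sites were thus not strong by fold. Their median fold enrichment was 4.25 (range 3.16 to 5.98), beside 4.98 over all TCF7L1 summits, and 8 of 10 were below that overall median. With a fold enrichment of at least 5 required, 2 summits were left, both at DUSP6. By −log10 q-value the order differed, with a member median of 5.88 (range 2.19 to 13.98) beside 5.44 over all summits.

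The reads behind each value show how the scales part. Stacked reads and local background are not listed in the files but follow from each summit's fold enrichment together with its p-value. The 10 summits had a median of 26.5 stacked reads over a background of 5.25, whereas the medians of all TCF7L1 summits were 20 and 3.29. The local background was above the overall median at 10 of 10 sites. The promoter of DUSP6 had 43 reads over a background of 7.29, and the site 18.9 kb upstream of SPRY2 had 43 reads over 8.06. The site 21.0 kb upstream of SPRY2 had 27 reads over 7.87, and thus all 3 SPRY2 sites had a background above 95.1% of TCF7L1 summits. The upstream pair lay 2111 bp apart, so its backgrounds may not be separate observations. At SPRY4 the backgrounds were between 4.0 and 5.46.

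**Figure D3:**
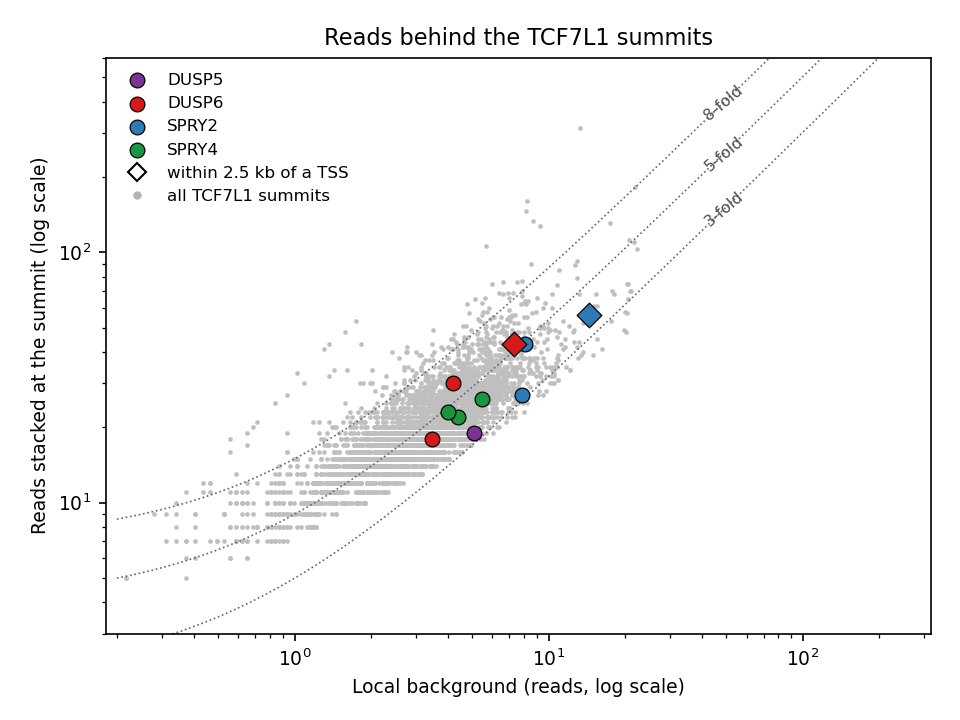
Reads stacked at the summit against local background, both on log scales, for all TCF7L1 summits on chromosomes 1 to 22, X and Y (grey) and the 10 at the member genes (colored; diamonds are within 2.5 kb of a TSS of the member); dotted lines mark equal fold enrichment. The SPRY2 promoter has the most reads of the 10, 56, and the highest background, 14.4, so that its fold enrichment is 3.69.

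The sites of DUSP6 and SPRY2 lay close to one another, and those of SPRY4 and DUSP5 did not. A second TCF7L1 region was within 25 kb for 6 of the 10 summits, the 3 at DUSP6 and the 3 at SPRY2, beside 17.7% of 3666 TCF7L1 summits on chromosomes. The median distance to the next region was 19600 bp at the members and 143000 bp over all. At SPRY4 the next region was 56539 bp or 76746 bp away, and at DUSP5 260678 bp. The limit of 25 kb was set after the distances were seen, so these counts only describe the sites. Since DUSP6, SPRY2 and SPRY4 held 3 summits each, short distances are partly built into the member median. All 10 windows were mostly single-copy sequence, whereas 21.0% of all TCF7L1 windows were multi-copy, meaning that at least 50% of their 31-base words occurred more than once in the genome.

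To see what the 10 windows shared, 9 sequence patterns were searched on both strands within 100 bp of each summit. The TCF core was present in 4 of 10, at the DUSP6 and SPRY2 promoters and at the SPRY4 sites 35.4 kb and 92.0 kb downstream. It was present in 26.8% of 3666 TCF7L1 windows, in 15.9% of 145 TCF7L1-MUT windows, in 16.4% of windows 1 kb to either side of TCF7L1 summits and in 7.05% of windows at the 5′ ends of protein-coding genes. The looser TCF pattern, which overlaps the core where this reads CTTTGAA or CTTTGAT, was present in 7 of 10, beside 53.4% of TCF7L1 windows and 60.8% of the windows 1 kb away. Within 50 bp of the summit a single member window, that of the SPRY2 promoter, held the core. The share of all TCF7L1 windows with the core within 50 bp was not computed, so this count has no comparison.

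Patterns read by ETS factors, AP-1 and CIC, through which ERK signals reach DNA, were searched in the same windows. The short ETS pattern (CAGGAAA or else CAGGAAG, with CCGGAAA or else CCGGAAG as its other forms) was found in 3 of 10, the SPRY2 sites 18.9 kb and 21.0 kb upstream and the SPRY4 site 92.0 kb downstream, beside 16.6% of TCF7L1 windows. It was in 14.8% of windows 1 kb to either side and in 24.9% of windows at the 5′ ends of protein-coding genes. The longer ETS pattern CCGGAAGT, which contains CCGGAAG, was in 0 of 10, beside 0.30%. The sequences TCAATGAA or else TCAATGGA, with TGAATGAA or else TGAATGGA as their other forms, read by the repressor CIC, were in 0 of 10, beside 2.59%. The AP-1 pattern (TGACTCA or TGAGTCA) was in 1 of 10, beside 7.31%.

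Of the remaining patterns, the forkhead pattern (TATTTAC or TGTTTAC) was in 0 of 10 windows, beside 12.6% of TCF7L1 windows. The GATA pattern (AGATAA or else AGATAG, with TGATAA or else TGATAG as its other forms) was in 3 of 10, beside 31.8%. GGGCGG was in 3 of 10, beside 14.4%. It was in 5.85% of windows 1 kb to either side and in 46.9% of windows at the 5′ ends of protein-coding genes. A match is a run of letters and not a measured binding site.

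**Figure D4:**
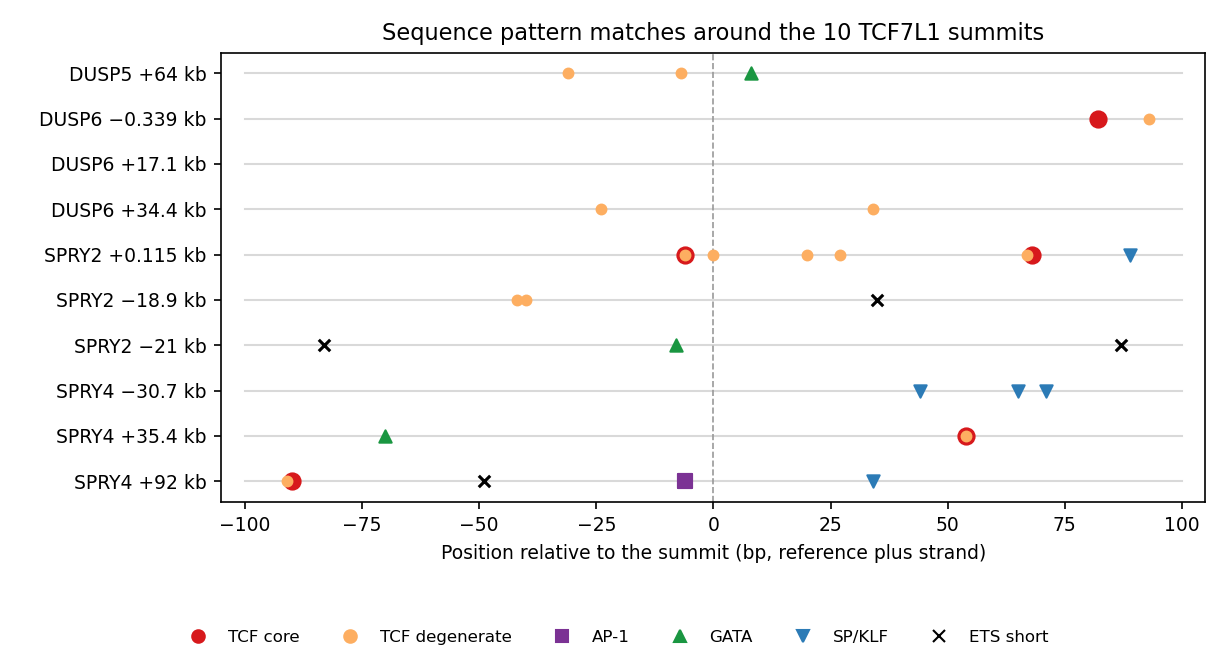
Pattern matches within 100 bp to either side of the 10 summits, by position in bp from the summit on the reference plus strand; each row is 1 summit and each symbol a match. The TCF core is at 4 summits and within 50 bp of the summit only at the SPRY2 promoter, and the window of DUSP6 +17.1 kb has no match to any pattern.

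The 6 genes without a site differed in how far the nearest TCF7L1 summit was. For SPRY1, the Sprouty gene without a site in its span, it was 188 kb downstream of the nearest TSS (chromosome 4, 123587869 to 123588405), where fold enrichment (7.66) and −log10 q-value (14.1) were both above every one of the 10 summits within the search, and SPRY1 had the nearest protein-coding TSS. For EGFR it was 165 kb away, past the 3′ end of the gene, with a fold enrichment of 4.23, and LANCL2 was nearer. For SPRED2, which links to RAS through neurofibromin as SPRED1 does, it was 559 kb away, and for the EGFR inhibitor ERRFI1 796 kb. For SPRED1 and DUSP4 it was 1210 kb and 1370 kb away.

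Between 100 kb and 250 kb from a TSS of the 10 genes lay 8 TCF7L1 summits, of which 4 had the member as the nearest protein-coding gene. These were the SPRY1 site, a DUSP6 site 233 kb downstream at a fold enrichment of 7.26 (−log10 q-value 9.47), and a pair downstream of SPRY2. The SPRY2 pair lay 187 kb and 207 kb from the nearest TSS, with fold enrichments of 6.0 and 7.20 and −log10 q-values of 10.7 and 28.3. Each of these 4 had a higher fold enrichment than any of the 10 summits inside the limit. The other 4 were nearer to LANCL2, SMNDC1, POC1B and FGF1. With a limit of 250 kb, 6 of 10 genes had a TCF7L1 summit, beside 41.3% of all protein-coding genes. The nearest TCF7L1-MUT summit to any of the 10 genes was 1170 kb away, at EGFR, and chromosomes 12 and 15 held no TCF7L1-MUT region.

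The other genes of the pathway were taken from lists of 56 genes in 6 groups. A TCF7L1 summit by the same rule was found at 16 (28.6%), beside 23.1% of all protein-coding genes, and a promoter summit at 9 (16.1%), beside 4.86%. Some genes were counted only for summits that lay inside another gene. Summits nearer to another gene were not set apart in these lists. The TCF7L1-MUT sample had no summit at any of the 56. Of 7 EGFR family ligands none had a TCF7L1 summit within 100 kb. Among the other receptors, ERBB4 of 3 had a promoter summit (fold enrichment 4.54).

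In the RAS-ERK cascade 5 of 19 genes had a summit and 2 had one at a promoter. GRB2, the adaptor that brings the exchange factor SOS to activated receptors, had its promoter summit at a fold enrichment of 4.67. Of 7 other MAP kinase phosphatases 1 had a summit and none at a promoter.

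Other inhibitors of EGFR and RAS had the highest share, with a summit at 6 of 11 genes and a promoter summit at 4. CBLB, a ubiquitin ligase that acts on activated receptors, had its summit 78 bp downstream of a TSS, with a fold enrichment of 5.21. SOCS4 had a promoter summit with a fold enrichment of 5.76. The RAS GTPase-activating proteins RASA2 and RASAL2 had promoter summits as well, with a fold enrichment of 4.12 at RASA2 and of 4.43 and 3.60 at a pair of RASAL2 summits. Among 9 ERK-induced transcription factors and related genes, 3 had a summit, and ETV1 (fold enrichment 3.62) and ELK4 (fold enrichment 6.25) had it at a promoter.

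**Figure D5:**
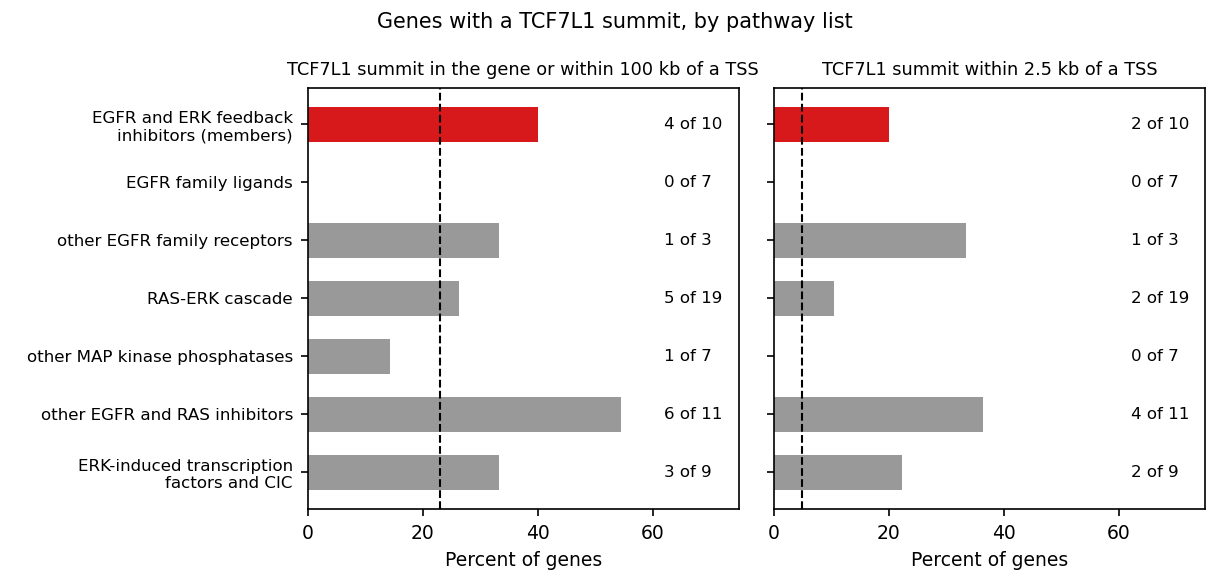
Percent of genes in each list with a TCF7L1 summit inside the gene or within 100 kb of a TSS (left) and within 2.5 kb of a TSS (right), with counts; dashed lines mark all protein-coding genes, 23.1% and 4.86%. The member genes had 4 of 10 and 2 of 10, and the EGFR family ligands 0 of 7 in both.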

How the data were processed

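Enriched regions were analysed for 1 TCF7L1 and 1 TCF7L1-MUT sample of HCT116 cells, with groups taken from the genotype labels. Reads had been trimmed (skewer) and mapped by the authors against GRCh38/hg38, for which BWA 0.7.12 was used, and MACS2 2.1.0 served to call regions in each sample. Use of an input library and the q-value threshold are not given in the sources used here, and both decide which weak regions are listed. The lowest −log10 q-value listed in the TCF7L1 sample was 1.31. The deposited files give each summit's fold enrichment (a ratio over local background), −log10 p-value and −log10 q-value. The deposited score restates the q-value and was not used. The summit lists matched the peak lists at 3762 of 3762 and 224 of 224 summits.

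Distances were measured to TSSs of all transcripts in GENCODE release 44, matching the files' build. Coordinates are 1-based. Regions were shared if they overlapped by 1 bp. Reads and background were solved from a Poisson model with a pseudocount of 1, within 0.001 in −log10 p for 100% of TCF7L1 summits and 99.6% of TCF7L1-MUT summits. The background is not adjusted for depth. Scripts were tested on simulated data. The 10 genes and the pathway lists were chosen with earlier results of these data known. All 10 genes were named, and other pathway genes with a promoter summit, of which 1 is not reported here. No p-value was computed, since regions of 1 library are not replicates. Python 3.11.15, pandas 2.3.3, scipy 1.17.1 and pysam 0.24.0 were used.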

Additional observations from a re-analysis of the deposited data

How the results depend on the processing

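In all, 9 results were recomputed under alternatives, giving 68 values, of which 45 stayed and 23 moved further. Staying meant within 1.5 times a count, within the 95% interval of a share, or between 3.3 and 5.31 for the median fold enrichment. No paired analysis was possible because both groups consist of 1 sample, which also leaves no replicate to omit. A fold enrichment of at least 5 left 2 of 10 summits, 1 gene of 4 with a summit, 1 promoter gene of 2, 1 region of 4 with the TCF core and a median fold enrichment of 5.64, and all-gene shares of 11.6% by the rule and 1.92% at promoters. A limit of 250 kb gave 18 summits. The TCF core was in 1 region within 50 bp of the summit, and the looser pattern in 7 within 100 bp.

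The share of all protein-coding genes by the rule (23.1%) was 20% under a q-value limit of 0.001, 15.5% at 50 kb, 41.3% at 250 kb, 21.4% from the 5′ end alone, 21.8% from protein-coding transcripts, 10.5% for the gene's own nearest summits and 19.6% in single-copy sequence. The promoter share (4.86%) was 3.98%, with the same q-value, 3.87% at 1 kb, 5.64% at 5 kb, 3.41% from the 5′ end, 4.31% from protein-coding transcripts and 4.44% in single-copy sequence. Nearest and single-copy settings were chosen after seeing the data. The counts of TCF7L1-MUT genes and shared regions were 0 under every alternative run for them. None of these alternatives could have changed those counts. The nearest TCF7L1-MUT summit to any member gene was 1170 kb away, and the widest limit was 250 kb. These values are among the 45 that stayed.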
